A study of Mus musculus with 4 samples.

Results

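The genes described here are Set and 9 other genes of histone chaperones, measured in RNA that the labels give as mouse heart. A probe set, the group of short array probes that reads one transcript, was taken for a gene where the annotation of the array names that gene alone. This gave 25 probe sets of 9 genes, of 45037 probe sets in all once the control probe sets were left out. No probe set carries the name Ssrp1 alone, so that member is not analysed here. Set was taken up because it differed between the groups on these same arrays, and it is also among the candidate genes of the study, which were picked partly on these arrays. Its difference is therefore given as a description, with no test. The other members were added as genes of like function with earlier results known.

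There were 2 Rhau KO-labelled arrays, from CAAG-ERT2-Cre;Rhau F/F mice, and 2 Control-labelled arrays, from Rhau F/F mice without the Cre transgene. All mice were adult C57BL/6J and all received 5 doses of tamoxifen by intraperitoneal injection at 2 months of age, and hearts were taken 2 months after the drug. The tamoxifen-activated Cre of this line is driven by a promoter active in many cell types and not restricted to cardiomyocytes. RHAU is an RNA helicase that unwinds G-quadruplexes. Control mice carry no Cre, so an effect of Cre itself cannot be told apart from loss of RHAU. No source states whether the arrays of a group came from separate animals.

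Dhx36, the gene of RHAU, went against the labels. On its 3 probe sets its intensity was 568 and 537, 627 and 537, and 327 and 276 in the Rhau KO-labelled arrays, against 327 and 194, 156 and 172, and 253 and 149 in the Control-labelled arrays. Whether these probe sets lie in the deleted part of the gene is not given in the sources used here. Every direction below is therefore drawn by label. One Control array, replicate 1, was unlike the rest. The median of 10 cardiomyocyte markers was 45193 and 45488 in the Rhau KO-labelled arrays, 212 in Control replicate 1 but 46831 in Control replicate 2. That of 10 skeletal muscle markers was 70.2 and 39.4 in the Rhau KO-labelled arrays, 43444 in Control replicate 1 and 56.4 in Control replicate 2. Myh6, the cardiac alpha myosin heavy chain, read 56344 and 55092 in the Rhau KO-labelled arrays, 171 in Control replicate 1 and 56095 in Control replicate 2. This defining marker of the labelled tissue was thus nearly missing from Control replicate 1. There Tnnt2 read 248, Tnni3 10.3, Mybpc3 53.2, Pln 175 and Ryr2 18.1, each on its brightest probe set, but not all 10 markers were so low. Myl2 read 41499 and 40197 in the Rhau KO-labelled arrays, 37359 in Control replicate 1 and 44161 in Control replicate 2. In Control replicate 1, Myl3 read 37087, Atp2a2 35567 and Actc1 12364. Whether Myl2, Myl3, Atp2a2 and Actc1 came from heart or from skeletal muscle in that array was not tested. Control replicate 2 was high in Hspa1a, an inducible heat shock gene, which read 1141 and 582 in the Rhau KO-labelled arrays, 631 in Control replicate 1 and 18079 in Control replicate 2. Differences of the members are given with and without Control replicate 1.

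Histone chaperones are mostly acidic proteins that hold histones away from DNA and hand them over when nucleosomes are built, taken apart or exchanged. SET and the ANP32 proteins bind histones and mask them from acetylation, and SET and ANP32A also inhibit the protein phosphatase PP2A. The NAP proteins, which share a fold with SET, carry mainly histones H2A and H2B, ASF1A and the HIRA complex carry H3 and H4, and nucleophosmin works in the nucleolus. The HIRA path works outside DNA replication and so also in cells that rarely divide, as adult cardiomyocytes do.

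Set was lower in both Rhau KO-labelled arrays than in both labelled Control, whichever of its 3 probe sets was read. On the brightest, 1426854_a_at, its intensity was 4198 and 4330 in the Rhau KO-labelled arrays, against 11366 and 12170 in the Control-labelled arrays. On 1426853_at it was 4233 and 4114 in the Rhau KO-labelled arrays, against 11223 and 11569 in the Control-labelled arrays. On 1421819_a_at it was 1940 and 1995 in the Rhau KO-labelled arrays, against 5642 and 6266 in the Control-labelled arrays. The groups lay far apart and the arrays within a group close together, since no pair of arrays of one group differed by more than 1.11-fold on any of the 3 probe sets.

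The mean intensity of Set on 1426854_a_at was 4264 ± 93.6 in the Rhau KO-labelled arrays and 11768 ± 568 in the Control-labelled arrays (SD, n = 2 each). The log2 difference, Rhau KO minus Control, was -1.46 (standard error 0.20), which is 2.76-fold lower. It was -1.45 (standard error 0.19) on 1426853_at and -1.60 (standard error 0.20) on 1421819_a_at, 2.73-fold and 3.02-fold lower. Without Control replicate 1 the log2 differences of the 3 probe sets were -1.51, -1.47 and -1.67, and without Control replicate 2 they were -1.41, -1.43 and -1.52. The difference was slightly larger on all 3 probe sets without the array that carries skeletal muscle transcripts. It was slightly smaller on all 3 without the array that is high in Hspa1a, where the array with skeletal muscle transcripts is the lone Control. The difference with all arrays is the mean of the differences without each Control array. A larger difference in the first case therefore forces a smaller difference in the second. The part of the content of these arrays in the difference of Set was not tested. The array annotation lists 1426853_at and 1426854_a_at with the same source sequence, so they are not counted as independent readings of the gene. In bulk RNA, fewer cells of a type and less RNA per cell cannot be told apart.

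**Figure D1:**
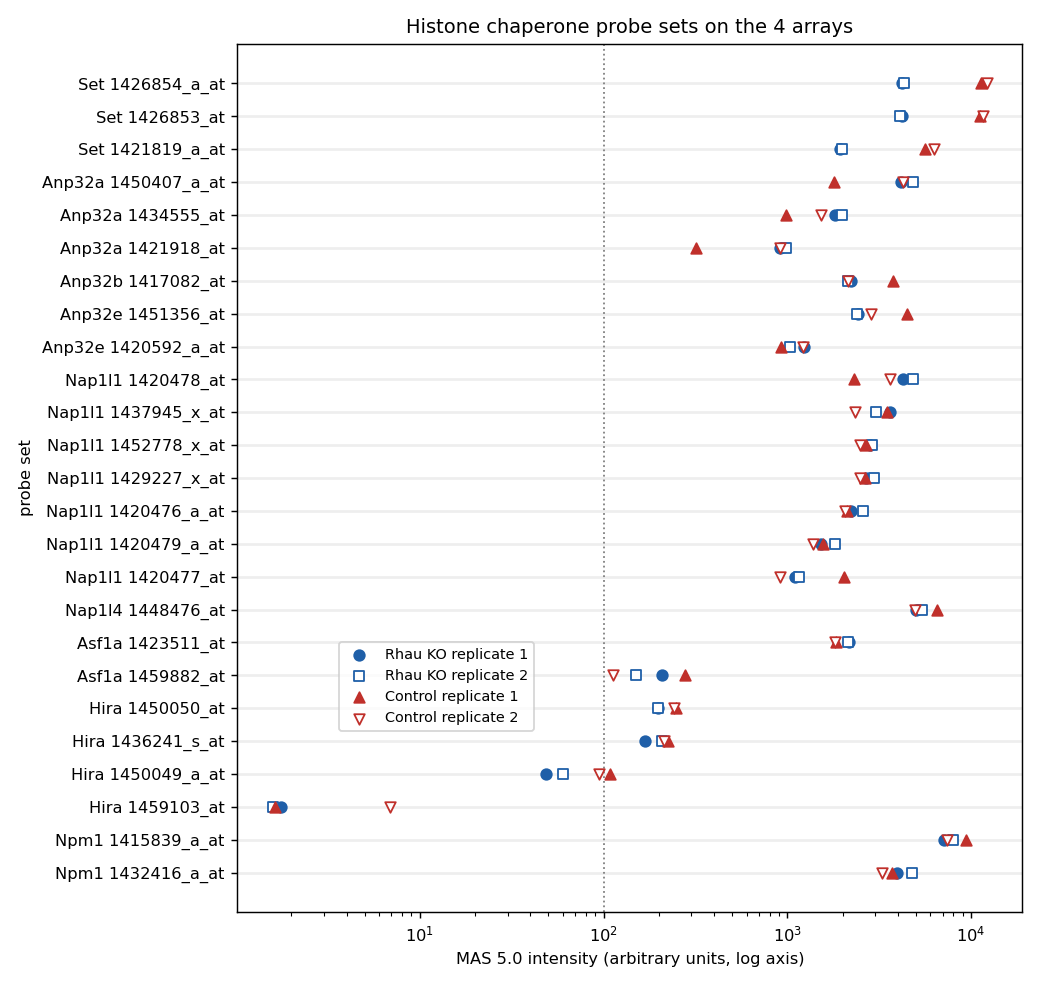
MAS 5.0 intensity (arbitrary units, log axis) of the 25 probe sets, one symbol per array, Rhau KO drawn blue and Control red, replicate 1 filled and replicate 2 open, and a dotted line at 100. The 3 probe sets of Set show blue and red symbols in separate pairs, at 4198 and 4330 against 11366 and 12170 on the brightest, while Anp32a has Control replicate 1 alone to the left.

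Over the 25 probe sets, the thresholds the study set for these arrays, 2-fold with an unadjusted p under 0.05 (here from limma), were passed by 3, all of them of Set and each lower in the Rhau KO-labelled arrays. Over all 45037 probe sets these thresholds were passed by 1514, or 3.36%, with 1.48% lower and 1.88% higher in the Rhau KO-labelled arrays. Since Set was chosen from this contrast, nothing is read from that count. With all 4 arrays, limma called 0 of the 25 and 0 of all probe sets (0.0%) at an adjusted p under 0.05. In that fit 3 of the 25 and 1892 of all, or 4.2%, had an unadjusted p under 0.05. The methods' t-test also called 0 at an adjusted p under 0.05, with 6 of the 25 and 2374 of all at an unadjusted p under 0.05. Without Control replicate 1 the same 3 probe sets of Set passed both thresholds and no other member did, beside 4.64% of all probe sets (1.36% lower and 3.28% higher). Without Control replicate 2 it was 5 of the 25, beside 15.6% of all (5.44% lower and 10.1% higher), and the 2 added were probe sets of Anp32a, higher in the Rhau KO-labelled arrays.

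RHAU binds G-quadruplexes, stacked structures of guanine runs, so the RefSeq promoter windows (GRCm38.p6, 250 bases before to 50 after each start) were searched on both strands for the G-quadruplex pattern, 4 runs of at least 3 G parted by loops of 1 to 7 bases. Set lies on chromosome 2 (30061996 to 30072577) and has windows at 2 start sites, each with 1 match, shown here because the description turns on Set. The first lies on the strand of the gene at chr2:30061822-30061843, 152 bases before the first start, and the second on the opposite strand at chr2:30066335-30066360, 113 bases before the other start and inside the annotated gene. Capitals mark the guanine runs, and each is read 5′ to 3′ on its own strand.
Set, first start: GGGtttctGGGGGaGGGcaGGG
Set, other start: GGGGcaGGGGGcGGGGccgtggcGGG
Of the 10 windows of 8 members in the table, 6 held the pattern on either strand, those of Set, Ssrp1, Anp32b, Nap1l1 and Hira, and 18.6% of all 32851 windows did. On the strand of the gene 2 of the 10 held it, beside 10.5% of all windows. On the opposite strand it was 4 of the 10, beside 9.35% of all. These are matches of letters in DNA before the start sites and not in the mRNA of those starts, and they are no measure of binding.

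Anp32a, the partner of SET in masking histones and a PP2A inhibitor itself, showed another pattern. On its brightest probe set, 1450407_a_at, it read 4134 and 4831 in the Rhau KO-labelled arrays, 1800 in Control replicate 1 and 4284 in Control replicate 2. On 1421918_at it read 915 and 986 in the Rhau KO-labelled arrays, 319 in Control replicate 1 and 917 in Control replicate 2. On 1434555_at it read 1810 and 1982 in the Rhau KO-labelled arrays, 981 in Control replicate 1 and 1527 in Control replicate 2. All 3 probe sets were lowest in Control replicate 1, and on 1450407_a_at and 1421918_at Control replicate 2 lay within the range of the Rhau KO-labelled arrays.

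The log2 difference of Anp32a was 0.69 (standard error 0.45), 0.81 (standard error 0.54) and 0.63 (standard error 0.29) on 1450407_a_at, 1421918_at and 1434555_at. Without Control replicate 1 it was 0.06, 0.05 and 0.31. Control replicate 1, the array with few heart transcripts, read at least 1.5-fold below each other array on all 3 probe sets, and the part of its tissue content in these values was not tested. Over the 25 probe sets, Control replicate 1 was that far below each other array on 4 (18.0% of all probe sets) and that far above each on 3 (11.2% of all).

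Anp32b, a close relative of Anp32a, was highest in Control replicate 1. It read 2210 and 2139 in the Rhau KO-labelled arrays, 3751 in Control replicate 1 and 2151 in Control replicate 2. Its log2 difference of -0.39 (standard error 0.32) was 0.02 without Control replicate 1. Anp32e, which removes the histone variant H2A.Z from nucleosomes, read 2410 and 2396 in the Rhau KO-labelled arrays, 4504 in Control replicate 1 and 2842 in Control replicate 2 on 1451356_at. Both Control arrays were higher there, and the log2 difference was -0.57 (standard error 0.29), or -0.24 without Control replicate 1. On the other probe set of Anp32e, 1420592_a_at, it read 1227 and 1031 in the Rhau KO-labelled arrays against 922 and 1222 in the Control-labelled arrays, and the groups overlapped. There the log2 difference was 0.08 (standard error 0.26), or -0.12 without Control replicate 1.

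**Figure D2:**
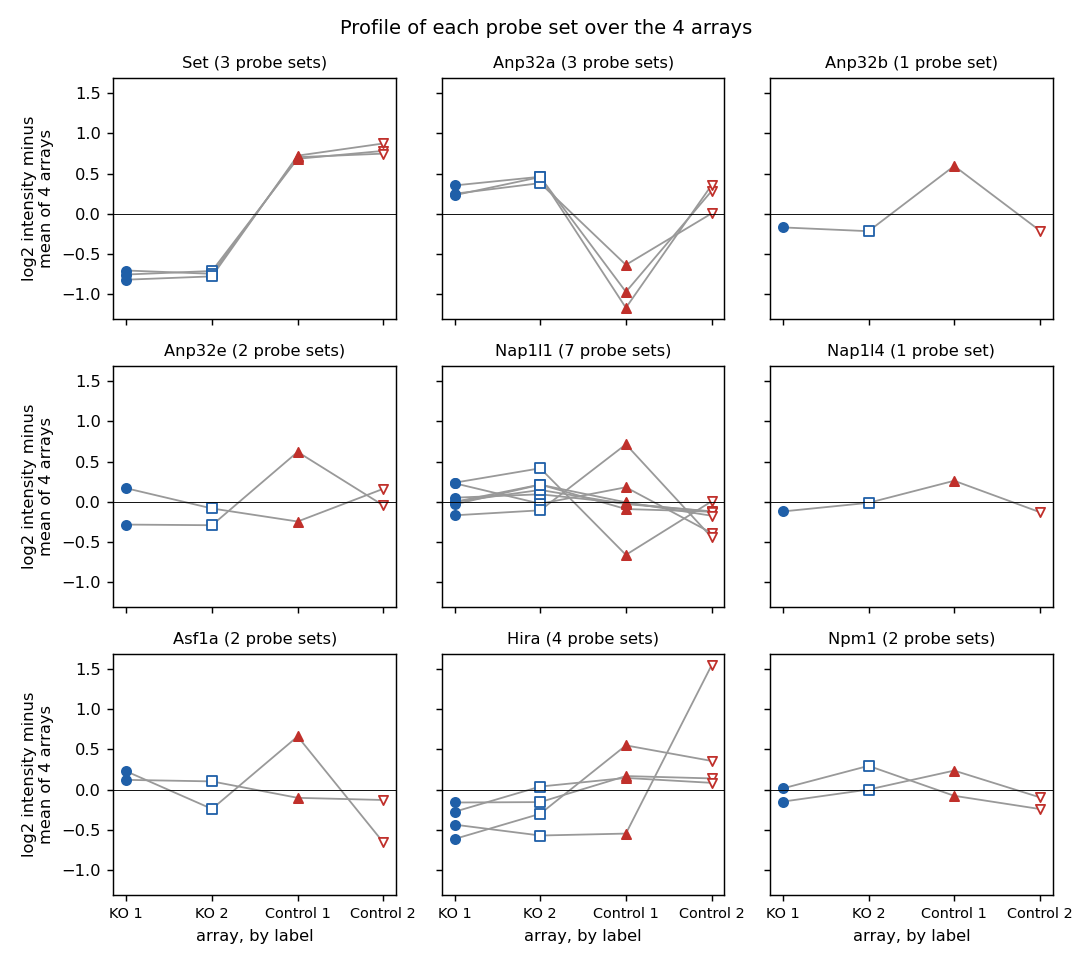
Log2 intensity of each probe set minus its mean over the 4 arrays (vertical axis), by array (horizontal axis), one panel per gene and one line per probe set, Rhau KO drawn blue and Control red. The 3 lines of Set step up together between the groups, those of Anp32a dip at Control replicate 1, and the 7 lines of Nap1l1 fan out there.

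Nap1l1, a carrier of H2A and H2B, had 7 probe sets, 4 of them (1420476_a_at to 1420479_a_at) listed with the same source sequence, and they did not go one way. On the brightest, 1420478_at, it read 4264 and 4829 in the Rhau KO-labelled arrays against 2292 and 3632 in the Control-labelled arrays, and the groups did not overlap. On 1420477_at it read 1105 and 1154 in the Rhau KO-labelled arrays, 2035 in Control replicate 1 and 915 in Control replicate 2, so that the Control arrays lay on either side. The log2 differences of the 7 ran between -0.27 and 0.65, and without Control replicate 1 between 0.19 and 0.49. The 3 probe sets whose names end in _x_at contain probes that can also detect other transcripts of closely similar sequence. On 1452778_x_at, one of these 3, Nap1l1 read 2808 and 2891 in the Rhau KO-labelled arrays against 2672 and 2488 in the Control-labelled arrays, with a log2 difference of 0.14 (standard error 0.20). The other x-type probe sets read 3599 and 3019 (1437945_x_at) and 2683 and 2973 (1429227_x_at) in the Rhau KO-labelled arrays, against 3477 and 2347 and against 2631 and 2474 in the Control-labelled arrays. On 1420476_a_at and 1420479_a_at it read 2233 and 2592 and 1529 and 1811 in the Rhau KO-labelled arrays, against 2100 and 2053 and against 1555 and 1386 in the Control-labelled arrays. Of these 5 probe sets 3 kept the groups apart, by a small margin each. Nap1l4, its paralog, read 5006 and 5390 in the Rhau KO-labelled arrays against 6519 and 4973 in the Control-labelled arrays. The Control arrays of Nap1l4 again lay on either side, and its log2 difference was -0.13 (standard error 0.23), or 0.06 without Control replicate 1.

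Of the chaperones of H3 and H4, Asf1a read 2157 and 2130 in the Rhau KO-labelled arrays against 1849 and 1814 in the Control-labelled arrays on 1423511_at. The groups of Asf1a did not overlap, but the log2 difference of 0.23 was close to its standard error of 0.20, and it was 0.24 without Control replicate 1. Its other probe set, 1459882_at, read 207 and 150 in the Rhau KO-labelled arrays against 279 and 112 in the Control-labelled arrays, and the Control arrays enclosed the others, at a log2 difference of -0.01 with all arrays and 0.65 without Control replicate 1. Hira, which with ASF1A places the variant H3.3, read 197 and 198 in the Rhau KO-labelled arrays against 248 and 243 in the Control-labelled arrays on 1450050_at. The arrays of each group were nearly equal there, and the log2 difference was -0.31 (standard error 0.29), or -0.30 without Control replicate 1.

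Hira was lower in both Rhau KO-labelled arrays on 2 further probe sets. On 1436241_s_at it read 167 and 208 in the Rhau KO-labelled arrays against 223 and 214 in the Control-labelled arrays. On 1450049_a_at it read 48.4 and 60.1 in the Rhau KO-labelled arrays against 108 and 94.8 in the Control-labelled arrays, a log2 difference of -0.91 (standard error 0.44) at a dim level. Without Control replicate 1 these differences were -0.20 and -0.81. The fourth, 1459103_at, read 1.75 and 1.59 in the Rhau KO-labelled arrays against 1.62 and 6.90 in the Control-labelled arrays, too dim to give an order. These 2 dim probe sets of Hira were the only members with a mean under 100, a level that 51.8% to 54.0% of all probe sets did not reach on an array.

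Npm1, nucleophosmin, read 7148 and 7931 in the Rhau KO-labelled arrays against 9335 and 7419 in the Control-labelled arrays on 1415839_a_at, and the groups overlapped. On 1432416_a_at it read 3930 and 4772 in the Rhau KO-labelled arrays against 3689 and 3293 in the Control-labelled arrays, and the groups did not overlap. The log2 differences of Npm1 had opposite signs, at -0.14 (standard error 0.23) and 0.31 (standard error 0.22), or 0.02 and 0.40 without Control replicate 1.

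Both Rhau KO-labelled arrays lay below both Control arrays on 7 of the 25 probe sets, beside 14.0% of all probe sets, and above both on 7, beside 21.4% of all. The 7 lower ones were the 3 of Set, 1 of Anp32e and 3 of Hira, and the 7 higher ones were 1 of Anp32a, 4 of Nap1l1, 1 of Asf1a and 1 of Npm1. Of the 22 probe sets of the members other than Set, 12 had a higher and 10 a lower mean log2 intensity in the Rhau KO-labelled arrays (median centring turned 1 of the 12, of Anp32e, to lower), with a median log2 difference of 0.11, beside 0.09 over all probe sets. Without Control replicate 1 the median of the 22 was 0.13, beside 0.03 over all. The 20 of them with a mean of at least 100 had log2 differences between -0.57 and 0.81, and without Control replicate 1 between -0.30 and 0.65. With all arrays 15 of the 20 lay within 0.5 log2 units of 0, beside 71.6% of all probe sets of that brightness, and without Control replicate 1 it was 19 of the 20, beside 80.5%. No member probe set differed by more than 1.38-fold between the Rhau KO-labelled arrays, so 0 reached 2-fold there, beside 22.2% of all probe sets. Between the Control-labelled arrays 5 of the 25 reached 2-fold, beside 36.1% of all.

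**Figure D3:**
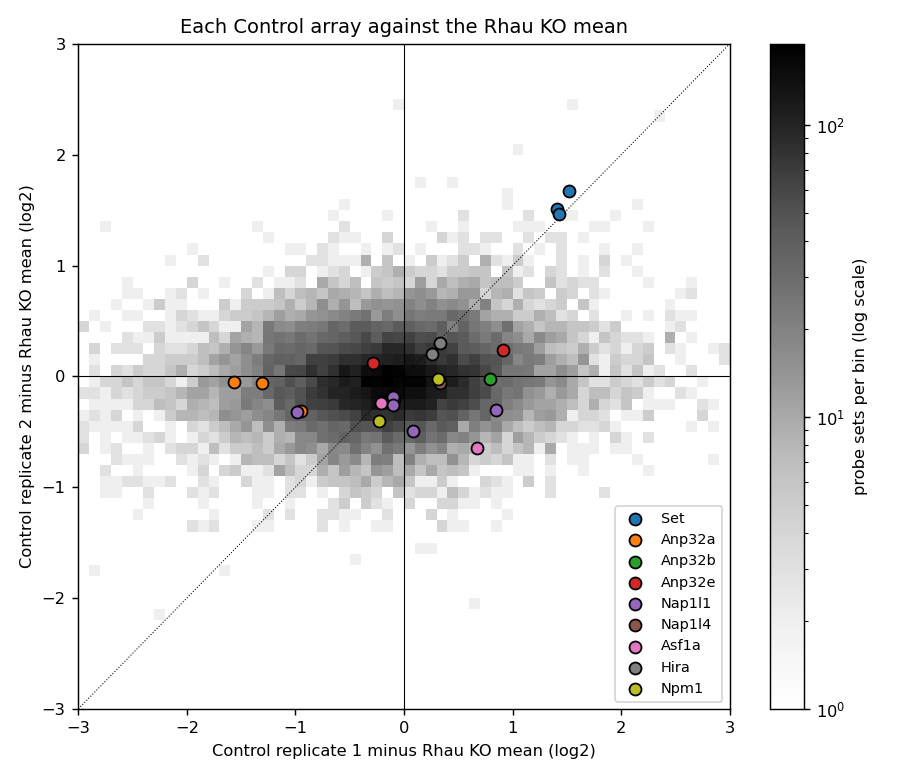
Log2 intensity of Control replicate 1 (horizontal axis) and Control replicate 2 (vertical axis), each minus the mean of the Rhau KO-labelled arrays, so that positive values mean higher in Control. Coloured points are the 23 member probe sets with a mean of at least 100 and grey squares count all 21395 such probe sets, of which 3.17% lie outside the plot, and Set lies near the dotted line of equal values, with 1.41 and 1.51 on its brightest probe set.

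The genes closest to Set over the 4 arrays were Xpo7, Zfp384, Trip12, Terf2 and Dcaf5, by the Euclidean distance of log2 intensities centred on their mean. The distances to the brightest probe set of Set ran between 0.153 (Xpo7) and 0.223 (Dcaf5) log2 units. Xpo7, a nuclear export receptor, read 2036 and 2004 in the Rhau KO-labelled arrays against 5878 and 5468 in the Control-labelled arrays. Trip12, a ubiquitin ligase, read 2927 and 2841 in the Rhau KO-labelled arrays against 6570 and 7939 in the Control-labelled arrays. In all 5 genes both Control-labelled arrays lay above both Rhau KO-labelled arrays, beside 14.0% of all probe sets. That order follows from choosing genes by their likeness to Set, so nothing is read from it. The other members with a mean of at least 100 lay at a distance of 1.04 or more from Set. With dim probe sets included, the nearest was Hira at 0.621 on 1450049_a_at, and the farthest was Anp32a at 2.49. With only 4 arrays, such likeness rests mainly on the step between the groups.

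Among 27 further histone chaperone genes measured, each by its brightest probe set, 2 were lower and 1 was higher in the Rhau KO-labelled arrays past both thresholds, beside 1.64% lower and 1.65% higher over 18193 genes. Daxx, which places H3.3 together with ATRX, read 352 and 474 in the Rhau KO-labelled arrays against 969 and 1035 in the Control-labelled arrays. Its log2 difference was -1.29 (standard error 0.26, adjusted p = 0.892 from limma over all probe sets). Supt6, a chaperone that travels with RNA polymerase II, read 392 and 317 in the Rhau KO-labelled arrays against 756 and 742 in the Control-labelled arrays, a log2 difference of -1.09 (limma, standard error 0.25, adjusted p = 0.892). Both were much the same without Control replicate 1, at -1.34 for Daxx and -1.07 for Supt6, but the dimmer probe set of Supt6 had a log2 difference of -0.22.

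Tspyl5, of the NAP family, was the higher one, at 199 and 238 in the Rhau KO-labelled arrays against 40.8 and 94.0 in the Control-labelled arrays. Its log2 difference was 1.82 (standard error 0.53, adjusted p = 0.892 from limma), or 1.21 without Control replicate 1 and 2.42 without Control replicate 2. The gene Nap1l3, with the next smallest p, read 114 and 117 in the Rhau KO-labelled arrays against 52.7 and 86.7 in the Control-labelled arrays, and it did not pass. Without Control replicate 1, 2 of the 27 were higher past both thresholds, beside 2.86% of all genes, and 2 lower, beside 1.56%. The added higher one was Nap1l5, which read 64.0 and 145 in the Rhau KO-labelled arrays, 76.5 in Control replicate 1 and 26.3 in Control replicate 2. Supt16, the partner of SSRP1 in the FACT complex, read 858 and 828 in the Rhau KO-labelled arrays against 599 and 1113 in the Control-labelled arrays. The median log2 difference of the 27 genes was 0.07, beside 0.09 over all genes, and 0.03 without Control replicate 1, beside 0.03 over all.

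**Figure D4:**
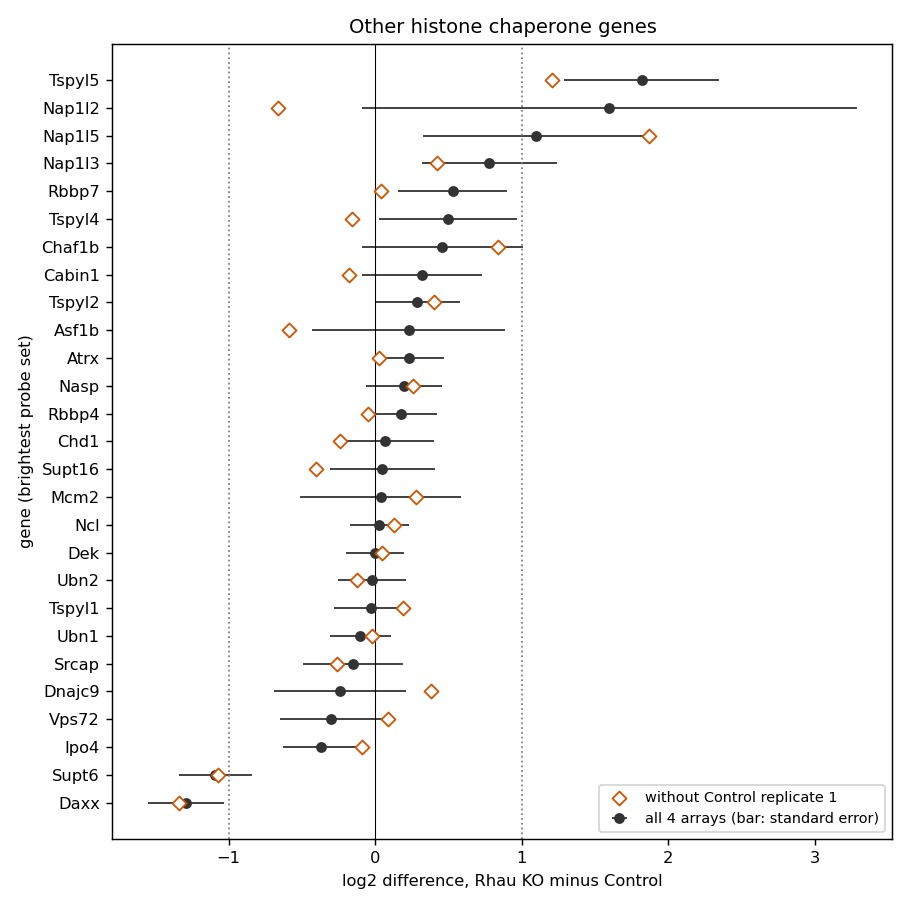
Log2 difference, Rhau KO minus Control, of 27 further histone chaperone genes on the brightest probe set of each (black, with standard error) and without Control replicate 1 (open diamonds), with dotted lines at a fold of 2 in either direction. Daxx and Supt6 lie beyond the left line with both settings, at -1.29 and -1.09 with all arrays. Tspyl5 and Nap1l5 lie beyond the right line with both settings. Nap1l2 lies beyond it with all arrays, at 1.60, but at -0.66 without Control replicate 1.

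The phosphatase PP2A, which SET inhibits, is built of a scaffold, a catalytic and a variable regulatory subunit. Of 22 genes of PP2A subunits and regulators, 0 passed both thresholds in either direction, where 1.64% of all genes were lower and 1.65% higher past them, with a median log2 difference of -0.05 and 0.06 without Control replicate 1. The catalytic subunit gene Ppp2ca read 13262 and 14369 in the Rhau KO-labelled arrays against 12340 and 13318 in the Control-labelled arrays, and the scaffold subunit gene Ppp2r1a read 11061 and 11712 in the Rhau KO-labelled arrays against 8461 and 10546 in the Control-labelled arrays. The regulatory subunit gene Ppp2r5a read 3040 and 2243 in the Rhau KO-labelled arrays against 3079 and 3601 in the Control-labelled arrays. In these 3 genes the groups differed by less than 2-fold. A further 3 genes of the list, Ppp2r2b, Cip2a and Ppp2r2c, were dim, under 100 on all arrays. Ppp2r2b, a regulatory subunit gene, read 3.88 and 36.1 in the Rhau KO-labelled arrays against 36.8 and 46.1 in the Control-labelled arrays, a log2 difference of -1.80 (standard error 1.22), and its other probe set had -1.28. Cip2a, another PP2A inhibitor, had the smallest p of the list at a dim level of 8.43 and 47.6 in the Rhau KO-labelled arrays against 58.6 and 80.7 in the Control-labelled arrays. The log2 difference of Cip2a was -1.78 (standard error 0.98) there, while its other probe set had 0.39, the opposite sign.

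Of 3 measured partners of SET in the complex named after it, 0 passed both thresholds, beside the same 1.64% lower and 1.65% higher over all genes. Hmgb2, a DNA-bending protein of that complex, read 559 and 589 in the Rhau KO-labelled arrays against 274 and 370 in the Control-labelled arrays, a log2 difference of 0.85 (limma, standard error 0.28, adjusted p = 0.892), and its other probe sets had 0.94 and 0.96. The endonuclease gene Apex1 read 2156 and 1986 in the Rhau KO-labelled arrays against 2117 and 1925 in the Control-labelled arrays, and these overlapped. Nme1, a nucleoside diphosphate kinase, read 1031 and 845 in the Rhau KO-labelled arrays against 1071 and 1064 in the Control-labelled arrays. Of 7 histone variant genes 0 passed, which at 1.64% lower and 1.65% higher over all genes is near the background. H2az1, the gene of the H2A.Z that ANP32E removes, read 2278 and 2410 in the Rhau KO-labelled arrays against 3848 and 2822 in the Control-labelled arrays. H2az2, its paralog, read 5437 and 5294 in the Rhau KO-labelled arrays against 3901 and 4416 in the Control-labelled arrays, so the paralogs lay on opposite sides on these probe sets, while the other probe sets had log2 differences of -0.36 (H2az1) and -0.16 (H2az2).

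Cell type markers moved mainly with Control replicate 1. The summed intensity of 10 cardiomyocyte markers was 431491 and 428641 in the Rhau KO-labelled arrays, 123053 in Control replicate 1 but 433208 in Control replicate 2, and that of 6 endothelial markers was 10256 and 9809 in the Rhau KO-labelled arrays, 4083 in Control replicate 1 and 9991 in Control replicate 2. Both sums were lowest in Control replicate 1, and Control replicate 2 lay near the Rhau KO-labelled arrays. Nearly all of the cardiomyocyte sum in Control replicate 1 was Myl2, Myl3, Atp2a2 and Actc1, and the median of the 10 markers there was 212. Of 6 fibroblast markers the sum was 35552 and 34737 in the Rhau KO-labelled arrays against 45853 and 41499 in the Control-labelled arrays, and of 7 proliferation markers it was 4619 and 4664 in the Rhau KO-labelled arrays against 3166 and 5091 in the Control-labelled arrays. Of 6 leukocyte markers it was 4518 and 4279 in the Rhau KO-labelled arrays against 2473 and 4429 in the Control-labelled arrays, and no marker read 0. Of 2 erythroid markers the sum was 352 and 274 in the Rhau KO-labelled arrays against 67.1 and 209 in the Control-labelled arrays. Most of the proliferation sum was Pcna, at 4144 and 4207 in the Rhau KO-labelled arrays against 3051 and 4470 in the Control-labelled arrays. The median of the 7 proliferation markers was 92.6 and 94.2 in the Rhau KO-labelled arrays, 16.5 in Control replicate 1 and 147 in Control replicate 2. Alas2, Csf1r and Dcn likewise made up most of the erythroid, leukocyte and fibroblast sums. The fibroblast sum was higher in both Control arrays, as Set was, and the erythroid sum lower. Of the 6 fibroblast markers, each on its brightest probe set, Dcn, Col1a1 and Col1a2 were higher in both Control arrays, Pdgfra was lower in both, and Col3a1 and Postn overlapped. The other probe set of Dcn had a log2 difference of 0.45, and those of Pdgfra had 0.24 and -0.07. Those of Col1a1 (-0.81) and Col1a2 (-1.17 and -0.68) kept their sign. The part of these markers in the difference of Set was not tested.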

How the data were processed

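RNA of 4 samples was hybridised to Affymetrix Mouse 430 2.0 arrays after labelling with a 3′ IVT kit. The authors scanned the arrays with Command Console 3.1 and normalised them by MAS 5.0 in GeneSpring 11.0. The deposited intensity values are linear, share one trimmed mean across the arrays, and were taken as deposited, without detection calls or scan dates. Precision is limited by having 2 arrays in each group. Groups came from the sample titles.

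Probe sets were named from the platform annotation, in which 34945 of 45037 carried 1 symbol, 932 several and 9160 none, with 64 control probe sets left out. Log2 intensities were compared, Rhau KO minus Control, over all probe sets in limma 3.58.1 (R 4.3.3; lmFit, then eBayes with its trend option), with Benjamini-Hochberg adjustment. The study names no test for the arrays, so its two-tailed Student test was run as an alternative. No source says that replicates are separate animals, so p-values cover only the spread of these samples, which may be technical, and with 2 arrays against 2 the smallest p of an exact permutation test is 0.333. A fit without an array assumes that the lone array of its group varies like the other group.

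The members and lists were chosen with earlier results of these data known. All member probe sets are reported, of each other list up to 4 genes by smallest p, and of a marker list up to 2 of its first members. The 5 genes closest to Set among probe sets with 1 symbol and a mean of at least 100 are also reported. Ppp2ca, Supt16, Nap1l2, Nap1l5, Hspa1a, Pcna, Alas2, Csf1r and the fibroblast markers were named after their values were seen. So were the cardiomyocyte markers other than Myh6 and Tnnt2. The alternatives were quantile normalization, eBayes without trend, a pseudocount of 32, median centring, probe sets with a mean of at least 100, one value per gene (its brightest probe set, or the mean over its probe sets), the methods' t-test, the replicate block and omission of single arrays. The code was tested on simulated arrays. Python 3.11.15, pandas 2.3.3, numpy 2.4.6 and matplotlib 3.10.9 were used.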

Additional observations from a re-analysis of the deposited data

How the results depend on the processing

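The log2 difference of Set on its brightest probe set was -1.59 with median centring, against -1.46 as reported, and ran between -1.51 and -1.41 when single arrays were left out. The 3 member probe sets past both thresholds, all of Set, became 1 of 9 with the brightest probe set of each gene and 1 of 9 with the mean over the probe sets of each gene, since each gene then counts once, and leaving out single arrays gave 3 to 5. Over all probe sets the 1514 past both thresholds became 744 with a pseudocount of 32, 397 of 21395 with a mean of at least 100, 599 of 18193 with the brightest probe set of a gene and 639 of 18193 with the mean over the probe sets of each gene. Leaving out single arrays gave 898 to 7016, the highest without Control replicate 2, which leaves the array with skeletal muscle transcripts as the lone Control. Median centring put the median log2 difference of all probe sets at -0.0312, against 0.0926 as deposited, and 664 of its 1529 calls were higher in Rhau KO (43.4%), against 847 of 1514 (55.9%).

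No source pairs the arrays of the same replicate number, and their deviations had a correlation of 0.00293 over probe sets. That value cannot decide whether such arrays share a batch, since the Control arrays also differ in skeletal muscle transcripts and Hspa1a. With the replicate block, 1606 probe sets and the 3 of Set passed both thresholds and Set stayed at -1.46. Of 278 values of the other member probe sets under these alternatives, 262 moved by less than the spread between replicates and 12 changed sign, 10 of those when an array was left out. The largest difference among the 12 was the -1.0 of Hira on 1459103_at, which was 0.04 without Control replicate 2. No detection calls were used, so dim values such as those of Hira on 1459103_at give no order.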
